A study of Homo sapiens with 6 samples.

Results

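Complement is a set of plasma and cell-surface proteins that marks particles for removal and can open pores in membranes. Its classical pathway starts when the C1 complex, with the serine proteases C1r and C1s, binds to a target, and all pathways meet at C3, whose active fragment joins with a fragment of factor B into the convertase that cleaves further C3. Cells guard themselves with surface regulators, among them CD46, CD55 and CD59, and many epithelial cancer cells carry these proteins and secrete components of the cascade themselves.

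Messenger RNA of 9 complement genes was examined in OVCA432 cells, a human line established from an ovarian tumour of the high grade serous type. The genes were chosen by name: the C1 proteases C1R and C1S and their inhibitor SERPING1, the convertase proteins C3 and CFB, the protease CFI that inactivates C3b, and the membrane regulators CD46, CD55 and CD59. They had 20 probe sets annotated with that symbol alone, out of 54613 probe sets without controls, and were 9 of the 19775 genes with a probe set of their own. The control group was OVCA432 cells given solvent and the MFAP5 group was OVCA432 cells given 200 ng/mL of recombinant human MFAP5, a secreted glycoprotein of extracellular microfibrils. All cells had been kept without serum for 24 h before, stayed in serum-free medium and were harvested 48 h after the addition. Each group had 3 samples, and each sample was put on its own Affymetrix U133 Plus 2.0 array. The samples were described as independent, but no source used here says whether they came from separate passages. The p-values therefore set each group difference against the spread between these samples, and may not cover the spread between passages. OVCA432 is 1 cell line, treated with a protein added from outside, and no host cells were present.

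The values were MAS5 signals, a linear brightness per probe set, with array-wise scaling to a trimmed mean of 500.07. A background level was read from the 27 Bacillus control probe sets, whose RNA human cells do not make, and the brightest of these reached 26.4 to 55.9 depending on the array. Using this level assumes that no Bacillus RNA had been added to the samples, and MAS5 detection calls were not used. The 12 epithelial and serous ovarian markers, among them EPCAM, KRT7, PAX8 and WT1, were above that level on all 6 arrays. Of the markers of other cells, none of the 6 leukocyte genes measured was above it on all 6 arrays, nor was any of the 4 endothelial genes, against 1 of 6 hepatocyte genes (APOA1) and 2 of 7 fibroblast genes (COL1A1 and COL1A2). The summed leukocyte signal was 86 to 185 in control and 112 to 192 in MFAP5 arrays, and that of the fibroblast genes 269 to 314 and 269 to 380. The summed hepatocyte signal was 619 to 792 and 554 to 638, and the endothelial one 137 to 208 and 189 to 248. The part of such cells in the results was not tested. The epithelial and serous ovarian markers summed to 94574 to 105197 in control and 109123 to 117723 in MFAP5 arrays, without overlap. They moved in both directions, MUC16 rising 3.63-fold and WT1 falling to 0.75 of its control level. ALB, a defining liver gene, was above background on 1 array in all, and PTPRC and PECAM1, which define blood and endothelial cells, on 2 and 4. The ratio of 3' to 5' control probe sets, a sign of RNA quality, overlapped between the groups for GAPDH (exact permutation p = 0.50, two-sided) and ACTB (exact permutation p = 0.60). In bulk samples such as these, fewer cells with a transcript and less of it per cell cannot be told apart.

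With MFAP5, the RNA of the C1 proteases and of their inhibitor rose together, while C3 and factor B moved in opposite directions. SERPING1 rose 2.42-fold, CFB 1.89-fold, C1R 1.63-fold and C1S 1.41-fold, and C3 fell to 0.56 of its control level. Among the membrane regulators, CD55 rose on each of its 3 probe sets, by 1.39-fold to 3.29-fold, CD59 rose on 1 of 5, and CD46 passed the test on none of 3. Of the 17 probe sets of these genes that were bright enough to be tested, 9 were called higher, 1 lower and 7 not called (limma, Benjamini-Hochberg adjusted p below 0.05 over all 27307 probe sets tested). In the whole comparison 25.2% of the probe sets were called, 13.5% higher and 11.8% lower. Brighter probe sets were called more often: above the 75% quantile of brightness 5252 of 13654 were called, and 8 of 14 complement probe sets. The split between the directions depended on the scaling: 53.4% of the calls were higher as deposited and 27.8% with array medians centred, while 9 of the 10 complement calls were higher under both scalings. For the 17 complement probe sets the log2 fold changes had a median of 0.48, beside 0.02 over all probe sets tested. The genes were chosen with earlier results of these data known, so these comparisons describe the list and do not test it. By the brightest probe set of each gene, 5 genes rose, 1 fell and 2 were not called, where 29.9% of all genes were called.

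**Figure D1:**
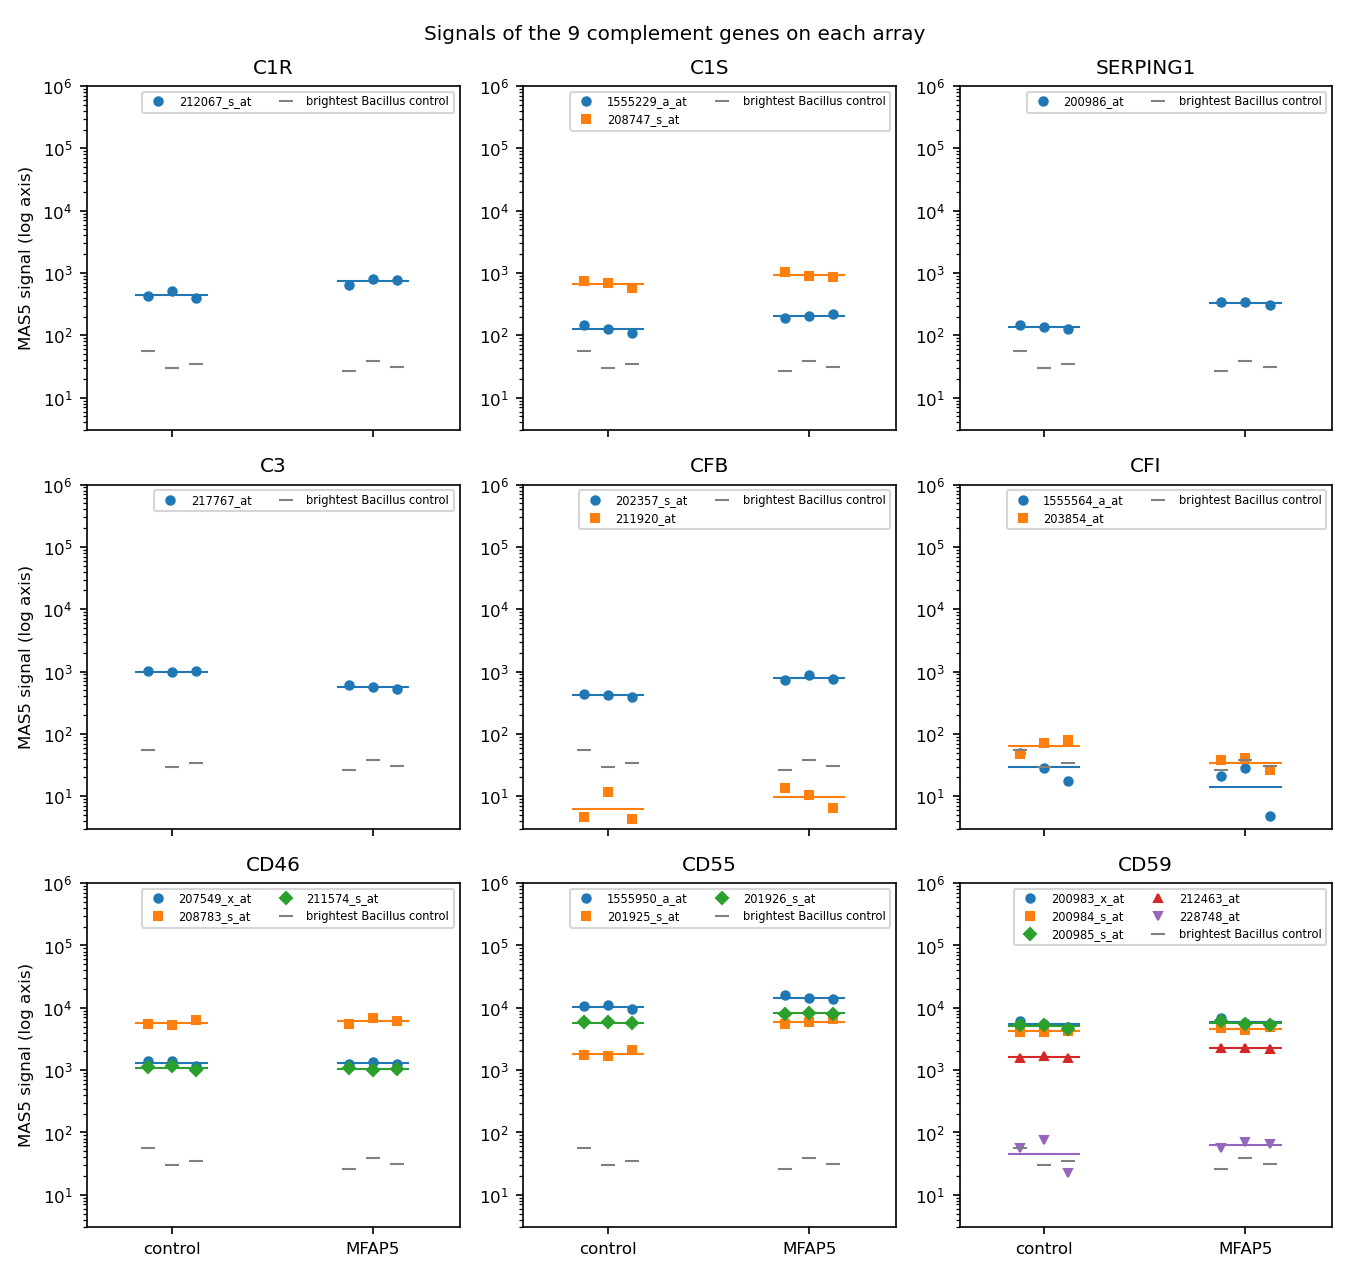
MAS5 signal (log axis) of each of the 20 probe sets of the 9 complement genes on the 3 control and 3 MFAP5 arrays; horizontal bars are group means of the log2 signal, and grey dashes the brightest Bacillus control on that array. The C3 points lie lower with MFAP5, those of C1R, C1S, SERPING1, CD55 and the brighter CFB probe set lie higher, and the CFI points lie near the control dashes.

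Upstream sequence was available for some of the genes that rose, and it is shown for CFB, C1R and CD55. Whether these genes share a regulator was not tested. The windows are those of RefSeq on GRCh38.p14, from 250 bases before to 50 bases after an annotated transcript start. They are written 5′ to 3′ on the strand of the gene, and 6 of the 9 genes had 11 such windows. No window was available for C1S, for SERPING1 or for C3, the gene that fell. Capitals mark matches, on either strand, to TTCNNNGAA (a form bound by STAT factors), GAAANNGAA (a form bound by interferon regulatory factors) or the NF-kappaB consensus. CFB lies on the forward strand at chr6:31945845-31946144, C1R on the reverse strand, with the window at chr12:7091844-7092143, and CD55 on the forward strand at chr1:207321428-207321727.
CFB: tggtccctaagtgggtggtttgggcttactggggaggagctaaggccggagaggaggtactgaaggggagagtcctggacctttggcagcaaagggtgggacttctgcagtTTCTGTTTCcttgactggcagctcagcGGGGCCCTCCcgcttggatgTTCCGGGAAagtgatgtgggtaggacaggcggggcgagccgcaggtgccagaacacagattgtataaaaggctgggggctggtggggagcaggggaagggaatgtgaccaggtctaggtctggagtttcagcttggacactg
C1R: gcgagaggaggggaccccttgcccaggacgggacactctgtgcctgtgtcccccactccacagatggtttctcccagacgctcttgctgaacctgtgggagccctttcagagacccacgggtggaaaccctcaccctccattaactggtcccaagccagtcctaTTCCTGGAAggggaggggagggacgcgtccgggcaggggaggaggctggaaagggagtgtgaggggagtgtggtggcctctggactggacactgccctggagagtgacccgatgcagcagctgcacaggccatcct
CD55: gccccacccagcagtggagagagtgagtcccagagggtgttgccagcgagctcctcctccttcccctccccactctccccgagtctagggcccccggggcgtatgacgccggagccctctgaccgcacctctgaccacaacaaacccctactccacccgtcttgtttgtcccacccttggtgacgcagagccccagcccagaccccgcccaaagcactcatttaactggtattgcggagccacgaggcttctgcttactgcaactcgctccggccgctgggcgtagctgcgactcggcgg
In CFB, which encodes the protease subunit of the alternative convertase, TTCCGGGAA stood at bases -92 to -84 from the start. The CFB match at bases -139 to -131, TTCTGTTTC, is GAAANNGAA on the other strand, and the NF-kappaB consensus matched at bases -112 to -103. In C1R, TTCCTGGAA stood at bases -86 to -78 of the window shown, and the other C1R window, at chr12:7092396-7092695, held no match to any pattern searched. The windows of CD55, CFI and CD46 also held none. Of all 35116 RefSeq windows of this length, 7.66% held TTCNNNGAA and 8.11% held GAAANNGAA, each on either strand, and 11.3% held the NF-kappaB consensus. These forms of the latter 2 patterns replaced narrower ones after the first matches had been seen: the narrower NF-kappaB form (in 1.91% of all windows) was in 0 windows of the complement genes, and the narrower interferon regulatory factor form (in 3.57%) was in 1, that of CFB. TGACGTCA, the cAMP response element (in 1.85% of all windows), was in none of the 11 windows of the complement genes. TGANTCA, the AP-1 form (in 7.71%), was in 1 of the 4 CD59 windows. TTCNNNGAA was also in 2 of the CD59 windows, which overlap and share the match. No matches to different patterns overlapped in these windows, and a match is a run of letters, not a measured binding site.

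C1R and C1S encode the proteases that activate the classical pathway, C1r cleaving C1s and C1s cleaving C4 and C2. The C1R signals were 434.3, 518.6 and 403.9 in the control samples and 637.5, 812.7 and 759.1 with MFAP5. All 3 MFAP5 values lay above all control values, and the groups were separate, in either direction, for 41% of all probe sets tested. The rise of C1R was 1.63-fold (0.70 ± 0.13 SE on the log2 scale, n = 3 arrays each, limma adjusted p = 0.00334).

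C1S had a bright and a dimmer probe set, and both rose. On the brighter, 208747_s_at, the control signals were 744.0, 688.2 and 572.6 and the MFAP5 signals 1046, 899.0 and 868.2, without overlap. That is a 1.41-fold rise (log2 fold change 0.49 ± 0.12 SE, limma adjusted p = 0.0131, n = 3 each). The dimmer, 1555229_a_at, read 145.8, 128.0 and 110.8 in control and 187.5, 204.8 and 219.3 with MFAP5, a rise of 1.60-fold (limma adjusted p = 0.0188). The calls of both were lost on arrays centred on their hybridisation controls (adjusted p = 0.0768 and 0.0609), and that of the dimmer also without MFAP5 replicate 2 (adjusted p = 0.0614) or 3 (0.0677). C1R and C1S have no other protein-coding gene between them in the RefSeq order, and the next neighbour of C1R on its other side is C1RL, a C1r-like protease. C1RL read 342.1, 392.4 and 483.6 in control and 549.2, 740.7 and 710.4 with MFAP5 on its brighter probe set. It rose 1.64-fold (limma adjusted p = 0.00785), and its other probe set was not called (1.41-fold, adjusted p = 0.18).

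SERPING1 encodes C1 inhibitor, a serpin that inactivates C1r and C1s and also acts on the proteases of the kallikrein and contact systems. Its signals were 146.7, 136.9 and 126.0 in control and 340.1, 347.5 and 302.6 with MFAP5. The lowest MFAP5 value was far above the highest control value. The rise was 2.42-fold (log2 fold change 1.27 ± 0.15 SE, limma adjusted p = 0.000222, n = 3 each), higher than that of 98.7% of all probe sets tested.

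C3 is the central component, whose cleavage labels surfaces with C3b, and CFB gives the alternative convertase its protease. The control signals of C3 were 1008, 987.5 and 1008, and the MFAP5 signals 599.4, 557.4 and 516.3. The 3 control samples were close together and all 3 MFAP5 samples lay below them. C3 was 1.80-fold lower (log2 fold change -0.85 ± 0.09 SE, limma adjusted p = 0.000136, n = 3 each), and only 1.4% of all probe sets tested had a log2 fold change as low or lower. C3 was called lower in every alternative run, with log2 fold changes from -0.99 to -0.79.

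CFB went the other way on its brighter probe set, 202357_s_at. Its signals were 429.3, 425.2 and 395.8 in control and 727.0, 866.1 and 770.7 with MFAP5, without overlap. The rise was 1.89-fold (log2 fold change 0.92 ± 0.10 SE, limma adjusted p = 0.000197, n = 3 each). The other CFB probe set, 211920_at, read between 4.26 and 13.57 and was below the brightest Bacillus control on every array, so it gives no fold. The mean of both CFB probe sets was too dim to be tested.

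CFI encodes factor I, the protease that cleaves C3b and C4b with the help of cofactors such as CD46. Neither of its probe sets was bright enough for the test. On 203854_at the control signals were 47.74, 72.01 and 78.98 and the MFAP5 signals 38.21, 40.94 and 26.64. All MFAP5 values lay below all control values, and such a separation, in either direction, was seen for 12.3% of the probe sets too dim for the test. In each group 2 of 3 arrays were above the brightest Bacillus control, and without the filter the probe set was not called (log2 fold change -0.90 ± 0.38 SE, limma adjusted p = 0.184). The other CFI probe set, 1555564_a_at, did not exceed that control on any of the 6 arrays. The signals of 203854_at were thus lower with MFAP5 without a call, and a change of CFI was not established at this brightness.

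**Figure D2:**
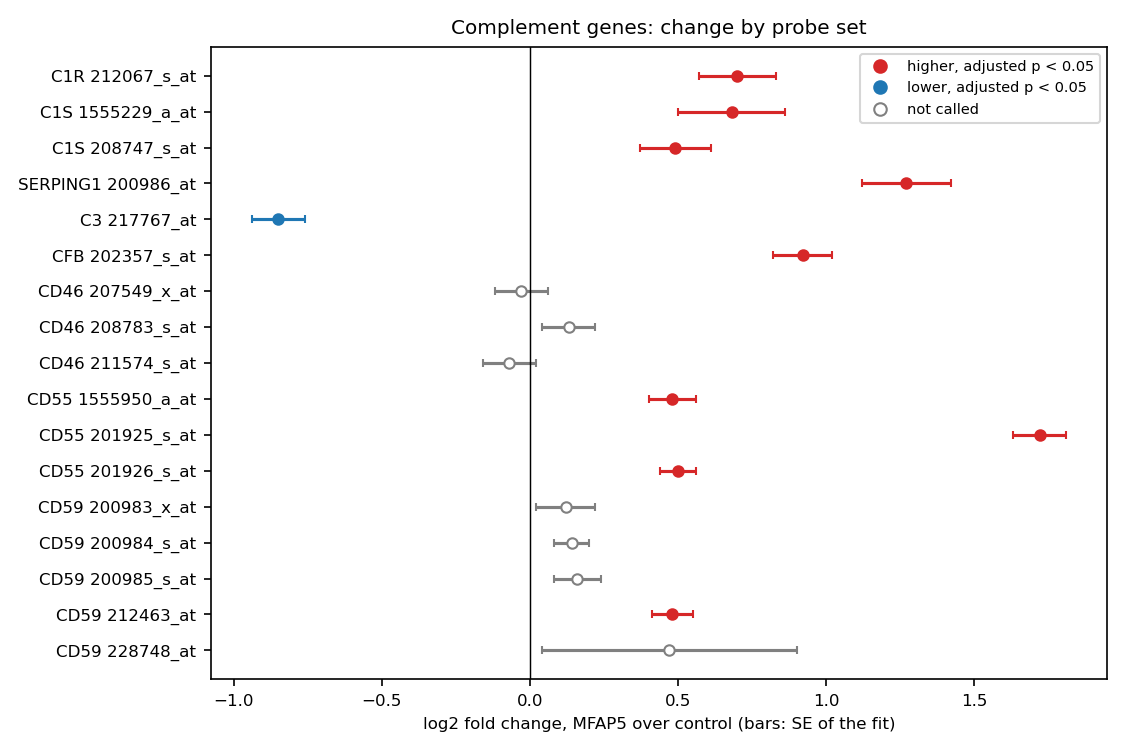
Log2 fold change (MFAP5 over control) of the 17 probe sets of complement genes past the brightness filter, with the standard error of the fit as bars; filled points passed adjusted p below 0.05. C3 is the point at -0.85, CD55 201925_s_at the point at 1.72, and the 3 CD46 points lie between -0.07 and 0.13.

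CD55, or decay-accelerating factor, is a lipid-anchored protein that takes the C3 convertases apart. Its probe set 201925_s_at read 1753, 1673 and 2093 in control and 5600, 5982 and 6546 with MFAP5. Every MFAP5 value was well above every control value. This was a 3.29-fold rise (log2 fold change 1.72 ± 0.09 SE, limma adjusted p = 1.75e-06, n = 3 each), above that of 99.5% of all probe sets tested. The brightest CD55 probe set, 1555950_a_at, read 10651, 11222 and 9592 in control and 15872, 14255 and 13676 with MFAP5. It rose 1.39-fold (log2 fold change 0.48 ± 0.08 SE, limma adjusted p = 0.00176). The last, 201926_s_at, read 5840, 5862 and 5603 and then 8072, 8331 and 8044. It rose 1.41-fold (limma adjusted p = 0.000201), and in neither of these did the groups overlap.

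The 3 CD55 probe sets all rose, but by different factors, and whether that difference holds was not settled. To test this, the log2 signal of each probe set was set against the mean of its gene's other probe sets on the same array, a comparison chosen after seeing the data and fitted over all 17155 probe sets with such a partner. The rise of 201925_s_at was larger than that of the other CD55 probe sets by 1.23 ± 0.17 on the log2 scale (SE, limma adjusted p = 0.0437, n = 3 each), where 1.12% of the probe sets were called. The groups did not overlap, but the call was lost in 8 of 12 other runs, among them each that left out 1 array (adjusted p from 0.0881 to 0.135), in which 0 probe sets were called at all. It was kept with a variance trend on brightness (adjusted p = 0.00606). The mean of the 3 CD55 probe sets rose by 0.90 on the log2 scale (adjusted p = 7.29e-06).

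CD59, or protectin, blocks the last step, the insertion of C9 into the membrane pore. On 212463_at the control signals were 1564, 1703 and 1557 and the MFAP5 signals 2269, 2277 and 2195, without overlap. This was a 1.40-fold rise (log2 fold change 0.48 ± 0.07 SE, limma adjusted p = 0.000832, n = 3 each), and its call was lost on arrays centred on hybridisation controls (adjusted p = 0.0528). The 3 brighter probe sets were not called. The brightest, 200983_x_at, had a fold of 1.09 with a 95% interval of 0.93 to 1.26 (limma adjusted p = 0.405), and its sign turned with array medians centred. For 200985_s_at the fold was 1.12 with an interval of 0.99 to 1.27 (adjusted p = 0.172). The remaining bright set, 200984_s_at, read 4134, 4151 and 4322 in control and 4677, 4420 and 4840 with MFAP5. Its groups did not overlap, but it missed the threshold with a fold of 1.10 (log2 fold change 0.14 ± 0.06 SE, 95% interval 0.00 to 0.28, limma adjusted p = 0.123). The last probe set, 228748_at, was near the background, with signals from 22.35 to 76.29, and was not called (adjusted p = 0.46). Set against the gene's other probe sets, 212463_at was not called (0.26 ± 0.15 SE on the log2 scale, adjusted p = 0.429), so a difference between the CD59 probe sets was not shown. The mean of all 5 was higher by 0.28 on the log2 scale (adjusted p = 0.102).

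CD46, or membrane cofactor protein, helps factor I to cleave C3b and C4b on the cell that carries it. Its brightest probe set, 208783_s_at, read 5512, 5236 and 6295 in control and 5577, 6881 and 6225 with MFAP5. The groups overlapped, and the fold was 1.10 with a 95% interval of 0.95 to 1.26 (limma adjusted p = 0.332, n = 3 each). The other CD46 probe sets had folds of 0.98 (207549_x_at, interval 0.85 to 1.13, limma adjusted p = 0.857) and 0.95 (211574_s_at, interval 0.84 to 1.09, adjusted p = 0.619). The sign changed with the scaling for 208783_s_at and with the arrays used for 207549_x_at but not for 211574_s_at, and no alternative run called any of them.

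The members were also compared as ratios on the same array, for 6 pairs chosen after seeing the data, each by its brightest probe sets. A ratio on an array does not depend on how that array was scaled, and it shows unequal change only. The ratio of C3 to CFB was lower with MFAP5 on every array: relative to the control mean the log2 ratios were -0.03, -0.05 and 0.08 in control and -1.54, -1.90 and -1.84 with MFAP5. Its change was -1.76 ± 0.12 on the log2 scale (SE, n = 3 each), or 3.39-fold lower. The ratio of C1S to SERPING1 changed by -0.78 ± 0.09 and that of C1R to SERPING1 by -0.57 ± 0.16, so on every MFAP5 array the protease signals were lower relative to their inhibitor than on any control array. For these 3 pairs and for CD55 over CD59 (0.36 ± 0.07) the groups did not overlap. Each had an exact permutation p of 0.10, two-sided, the smallest that 3 against 3 arrays can give, and 0.15 adjusted over the 6 pairs. For C3 over CFB this outcome was fixed, because C3 fell and CFB rose, each without overlap. The share of all gene pairs that separate was not computed, so these values describe the 6 pairs and do not test them. The ratio of C1R to C1S (0.21 ± 0.21, exact permutation p = 0.30) and that of CD55 to CD46 (0.35 ± 0.20, exact permutation p = 0.20) overlapped between the groups.

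**Figure D3:**
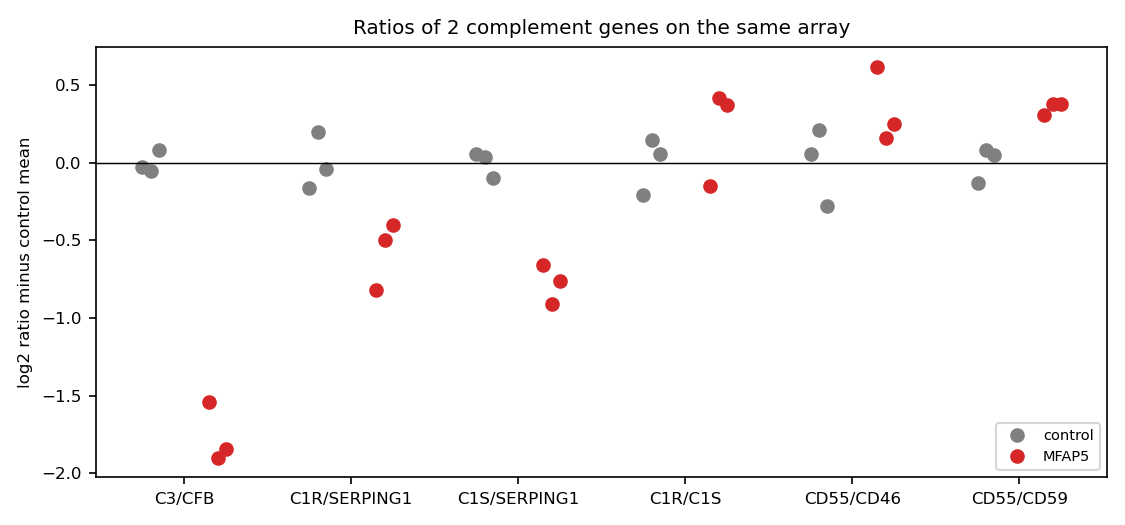
Log2 ratio of the signals of 2 complement genes on the same array, minus the mean of the 3 control arrays, for 6 pairs (grey points control, red points MFAP5, 1 point per array). The C3/CFB points with MFAP5 lie between -1.90 and -1.54, and the C1R/C1S and CD55/CD46 points overlap between the groups.

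Most of the other complement genes were too dim for the test, though C1QBP, CLU and CALR were bright. Of 53 further complement genes, 46 had a probe set of their own and 11 were bright enough for the test, of which 5 rose, 1 fell and 5 were not called. Their median log2 fold change was 0.19, beside -0.01 over all genes tested, of which 14.6% were called higher and 15.3% lower. For 19 of the 46, even the brightest probe set did not exceed the Bacillus controls on any of the 6 arrays. None of the 8 receptor genes, among them C3AR1 and C5AR1 for the anaphylatoxins, was bright enough for the test, and neither were the C1q chains C1QA, C1QB and C1QC. In the terminal pathway 1 of 7 genes was tested.

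Clusterin (CLU), which binds the terminal complex in solution and is also a chaperone, rose 1.95-fold. Its signals were 3102, 3093 and 2843 in control and 5882, 6067 and 5672 with MFAP5 (n = 3 each, limma adjusted p = 6.1e-06). All 3 CLU probe sets tested were called higher. SUSD4, a membrane protein reported to restrain the convertases, rose from 104.8, 106.2 and 92.22 to 225.9, 188.8 and 194.9. This was 2.01-fold (limma adjusted p = 0.00246), and its 3 probe sets were all called higher. C5, which starts the terminal pathway, read 199.7, 172.4 and 128.0 in control and 226.7, 247.2 and 270.1 with MFAP5, a 1.51-fold rise (limma adjusted p = 0.0434). The C5 call was lost in 10 of 13 alternative runs, with adjusted p up to 0.129. Calreticulin (CALR), an endoplasmic reticulum chaperone that also binds C1q, rose 1.28-fold on its brightest probe set (limma adjusted p = 0.00927), a call lost with centring on array medians (adjusted p = 0.066), without an intensity trend (0.0535) or on hybridisation controls (0.176). Of its other probe sets, 200935_at rose 1.77-fold (limma adjusted p = 0.00496) and 214315_x_at was not called (1.19-fold, adjusted p = 0.055). The collectin COLEC11, which starts the lectin pathway, was lower, with signals of 90.18, 79.46 and 77.90 against 28.55, 51.20 and 52.52. The MFAP5 signals all lay below the filter level of 53.7, so COLEC11 was tested only because of its control values. Its call (limma adjusted p = 0.045) was lost in 8 of 13 alternative runs. Among those not called, the brightest were C1QBP, COLEC12, CFD and C2, with log2 fold changes from -0.15 to 0.19. C1QBP, a mainly mitochondrial protein that binds C1q, was called lower when arrays were centred on their medians (log2 fold change -0.25, adjusted p = 0.0089), and so was its other probe set in the deposited scaling (log2 fold change -0.33, adjusted p = 0.0299).

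**Figure D4:**
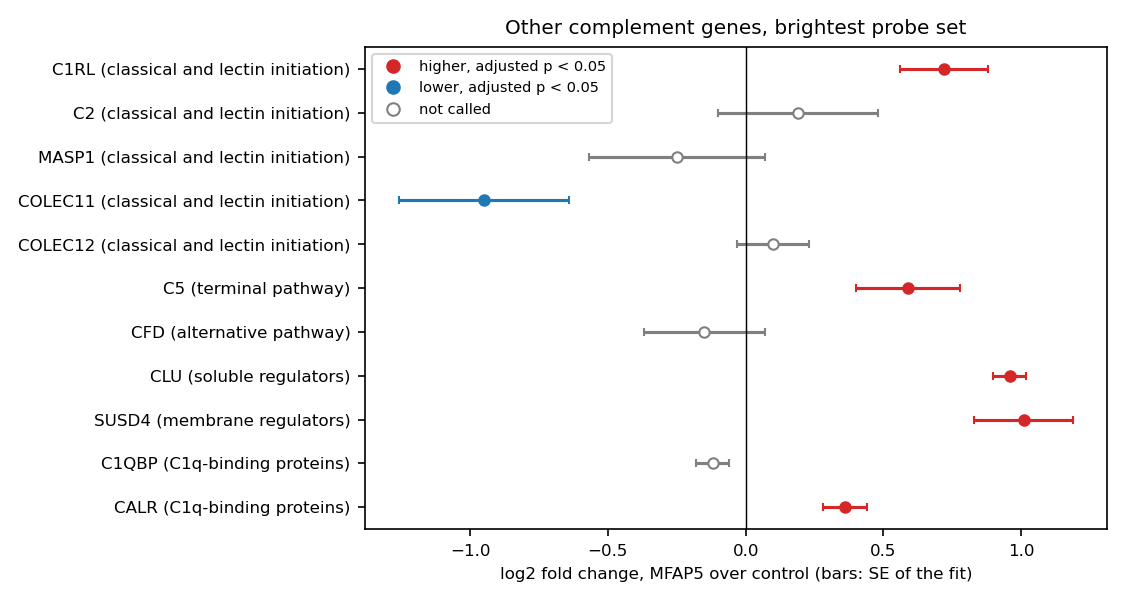
Log2 fold change (MFAP5 over control) of the 11 further complement genes past the brightness filter, by their brightest probe set, with the standard error of the fit as bars; filled points passed adjusted p below 0.05. CLU and SUSD4 lie near 1, and COLEC11 at -0.95 is the point called lower.

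Complement genes are known to be transcribed under interferons and in the acute-phase response, so genes of both were read beside them. Of 19 interferon-stimulated genes tested, 4 rose, 4 fell and 11 were not called, with a median log2 fold change of 0.12, where 29.9% of all genes tested were called and their median was -0.01. The guanylate-binding protein GBP2 rose 2.15-fold (limma adjusted p = 0.00102) on its brighter probe set, and its other was not called (1.56-fold, adjusted p = 0.0958). GBP1 had a log2 fold change of -0.86 (limma adjusted p = 6.48e-05), and IFITM1 and IRF9 rose 1.74-fold and 1.66-fold. The others called were IDO1, which rose (log2 fold change 0.65), and IFIT1, TAP1 and ISG15, which fell (-0.61, -0.56 and -0.34). Of 6 acute-phase genes tested, SERPINA1, which encodes alpha-1-antitrypsin, rose 3.12-fold (limma adjusted p = 0.000456) and ceruloplasmin (CP) 2.29-fold. The siderophore-binding protein LCN2 was the 1 that fell, with a log2 fold change of -0.52 (limma adjusted p = 0.00433), and 3 were not called, with a median of -0.11 over the 6. The part of either programme in the complement values was not tested. Outside these lists, the genes whose values over the 6 arrays lay nearest to those of C3 were ENDOD1, OIP5 and LARP6. Their root mean square distance, after centring each gene on its mean log2 signal, was 0.041, 0.045 and 0.048.

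**Figure D5:**
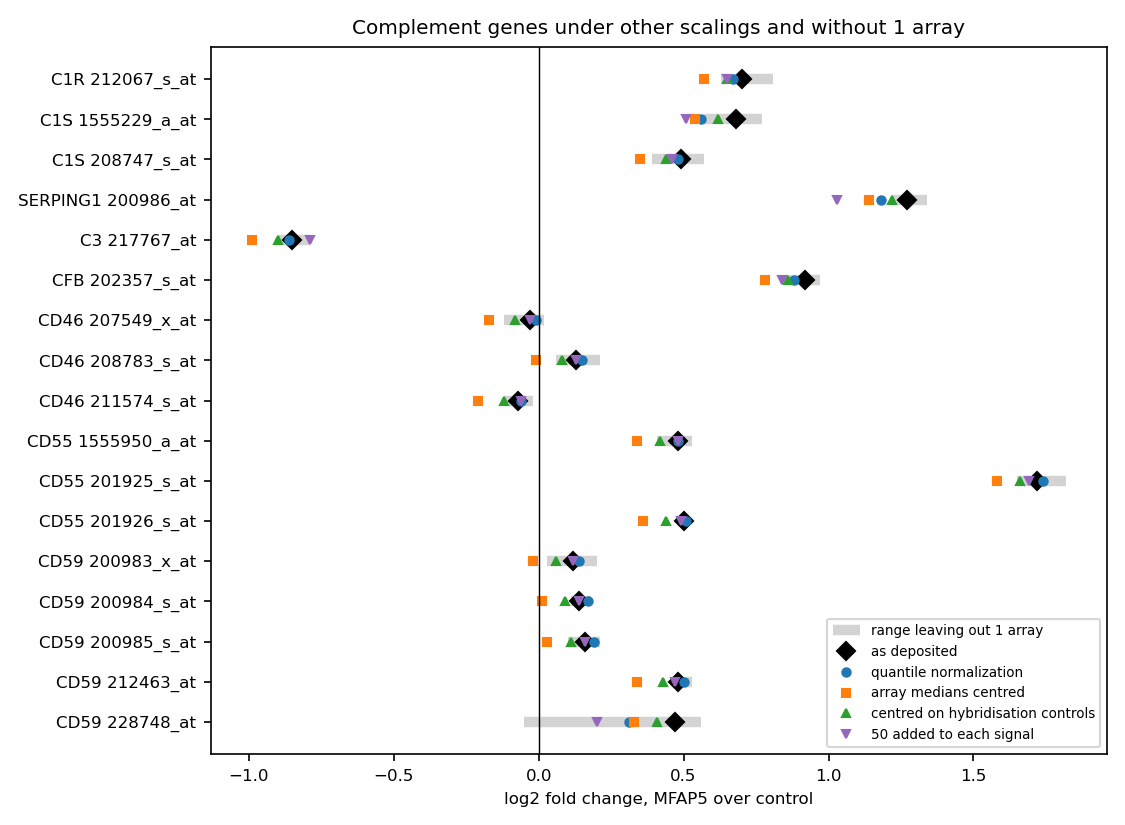
Log2 fold change (MFAP5 over control) of the 17 probe sets of complement genes as deposited (black diamonds), under 3 other scalings and with 50 added to each signal (coloured points), and the range when 1 array was left out (grey bars). C3 stays between -0.99 and -0.79 and CD55 201925_s_at between 1.58 and 1.82, while points of CD46 and CD59 lie on both sides of 0.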

How the data were processed

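The deposited table held a linear intensity for each probe set on each array, made by the authors with MAS5 per the submitters' processing notes, which give no version. All 6 arrays had a trimmed mean (2% off both ends) of 500.07, which shows scaling of each array to a common level and hides any change that most transcripts share. Gene symbols came from the platform annotation, where 41091 probe sets had exactly 1, and all 9 symbols matched RefSeq (GRCh38.p14) by Entrez identifier. Probe sets ending in _x_at or _s_at can share probes with other transcripts.

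Signals were taken to log2 with no pseudocount. The 62 control probe sets and those with a mean below the median (a signal of 53.7) were left out, leaving 27307. The test was limma (version 3.58.1, R 4.3.3), with the variance moderated along an intensity trend (4 residual and 6.15 prior degrees of freedom), two-sided, with Benjamini-Hochberg adjustment, MFAP5 against control. Depth is not defined for arrays, and their number limits the precision. Alternatives were other scalings, 50 added to each signal, other filters, no trend, a replicate block and each array left out; centring on hybridisation controls, the comparison of probe sets of 1 gene and the ratios between genes were added after the data had been seen. All probe sets of the 9 genes, each other complement gene called and the 4 brightest not called, each interferon and acute-phase gene called, and the 3 nearest to C3 were named. Genes and lists were chosen with earlier results of these data known.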

Additional observations from a re-analysis of the deposited data

How the results depend on the processing

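Of 238 alternative values for the complement probe sets, 228 kept their direction and their side of the threshold, 5 lost the call and 5 changed sign. The losses, all of C1S and of CD59 212463_at, stand with those genes. The sign changes were all of probe sets that were not called: CD46 208783_s_at (-0.01) and CD59 200983_x_at (-0.02) with array medians centred, CD46 207549_x_at (-0.12 to 0.02 without 1 array, above 0 without control replicates 1 or 2) and CD59 228748_at (-0.05 to 0.56, below 0 without control replicate 3). Among other named genes, COLEC12 changed to -0.04 with array medians centred, CFD to 0.03 without control replicate 1 (range -0.44 to 0.03) and C2 to -0.0024 without MFAP5 replicate 1 (range -0.0024 to 0.44). The number of complement probe sets called, 10 of 17, was 7 to 10 in every alternative, with 14 to 20 tested. Without 1 array it was 9 to 10, with 16 or 17 tested. Other complement genes called, 6 of 11, were 3 of 4 above the 75% quantile of brightness, where fewer were tested, and 3 when hybridisation controls set the scale. Interferon-stimulated and acute-phase genes called, 11 of 25, were 7 of 10 above that quantile. All probe sets called, 6888, were 3931 with centring on hybridisation controls; the cause was not tested. Centring on array medians lowered the median log2 fold change of all probe sets by 0.14, from 0.02 to -0.12, and turned 3679 higher and 3209 lower into 2302 and 5975 (relative to that shift, each log2 fold change was the same by construction). With the replicate number as a block, 7988 probe sets were called and 10 of the 17 complement probe sets. The deviations of same-numbered samples correlated at 0.09, -0.01 and 0.17, and those of unlike numbers at -0.18 to 0.10. With 3 samples per group, these values cannot show whether samples of the same number were handled together. COLEC11 lost its call under the block (adjusted p = 0.0511). Dim probe sets, such as those of CFI, limit what can be measured.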
